A study of Homo sapiens with 9 samples.

Results

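Wide regions of open chromatin that were called in every library were examined by ATAC-seq in VCaP cells, an established human prostate cancer line, and in an enzalutamide-resistant line derived from it. Peaks of all 9 lists on chromosomes 1 to 22 and X were merged where they overlapped by at least 1 bp. Wide shared regions were chosen by 2 measured values, the number of libraries with a peak in the merged region, which had to be all 9, and the merged width, which had to reach 1500 bp. There were 2609 such regions, which is 2.75% of the 94773 merged regions and 7.90% of the 33033 regions called in all 9 libraries. The other 30424 shared regions were narrower and serve as the comparison. A further 73 regions reached 1500 bp but were called in fewer than 9 libraries.

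Each of 3 groups had 3 libraries. Parental VCaP cells with solvent, DMSO, make up VCaP_DMSO. VCaP_ENZ libraries come from VCaP cells exposed to 10 µM enzalutamide, an androgen receptor antagonist used against prostate cancer, for 96 h. The resistant line, maintained in 16 µM enzalutamide, gave the VCaP16 libraries. The labels give every library as prostate cancer cells with a wild-type genotype, and they do not say whether VCaP16 is 1 clone or how it was derived. The 2 drug groups differ in dose, and the labels give no exposure time for VCaP16. All VCaP16 libraries carry the drug, so effects of line and drug cannot be told apart. Whether replicates came from separate cultures is not stated, and p-values therefore cover the spread among these libraries alone, possibly a technical one.

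In ATAC-seq the transposase Tn5 cuts and tags DNA that is not wrapped tightly in nucleosomes, and a peak caller marks stretches where the cuts pile up. Most open sites are short gaps made by bound transcription factors. Wide open stretches are known from active gene starts, from groups of neighbouring enhancers, and from repeated or amplified sequence where reads gather. No genome or annotation of hg19, the build of the peak lists, was used here. The regions are therefore given by coordinates, without genes, promoters, sequence or repeats, and the cell line was not checked against its marker genes.

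The lists held 53646 to 68921 peaks, with VCaP_ENZ replicate 2 (61744) and VCaP16 replicate 3 (68921) the longest. Between 373 and 943 peaks of a list were at least 1500 bp long. Wide shared regions held 4.69% to 6.61% of a list's peaks and 10.3% to 12.8% of its called bases. The lists hold a score per peak and no read counts, so the depth behind each value is unknown.

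Most wide shared regions were only a little wider than the limit. Their merged width had a median of 1711 bp (quartiles 1593 and 1917 bp) and reached 5556 bp. In all, 1460 regions (56.0%) were between 1500 and 1750 bp, 647 between 1750 and 2000 bp and 407 between 2000 and 2500 bp. Only 21 were 3000 bp or wider, and 74 were between 2500 and 3000 bp. Together they covered 4.71 Mb, which is 15.6% of the sequence in shared regions. The median width of the narrower shared regions was 804 bp. These widths follow from the rule and are a description.

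Merging joined peaks that were shorter than the region in most libraries. In 817 regions (31.3%) no library had a single peak of 1500 bp, and in another 705 (27.0%) only 1 library did. At least 5 libraries had such a peak in 501 regions (19.2%), and all 9 had one in 147 (5.63%). The bases called in all 9 libraries, here called the common core, had a median of 838 bp, or 47.3% of the merged width. Summed over regions the core was 2.19 Mb, 46.5% of the sequence. It formed 1 segment in 1864 regions, 2 in 627 and 3 or more in 36, and 82 regions (3.14%) had no base that every library called. A core of at least 1500 bp was present in 153 regions, in 123 of them as 1 segment.

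**Figure D1:**
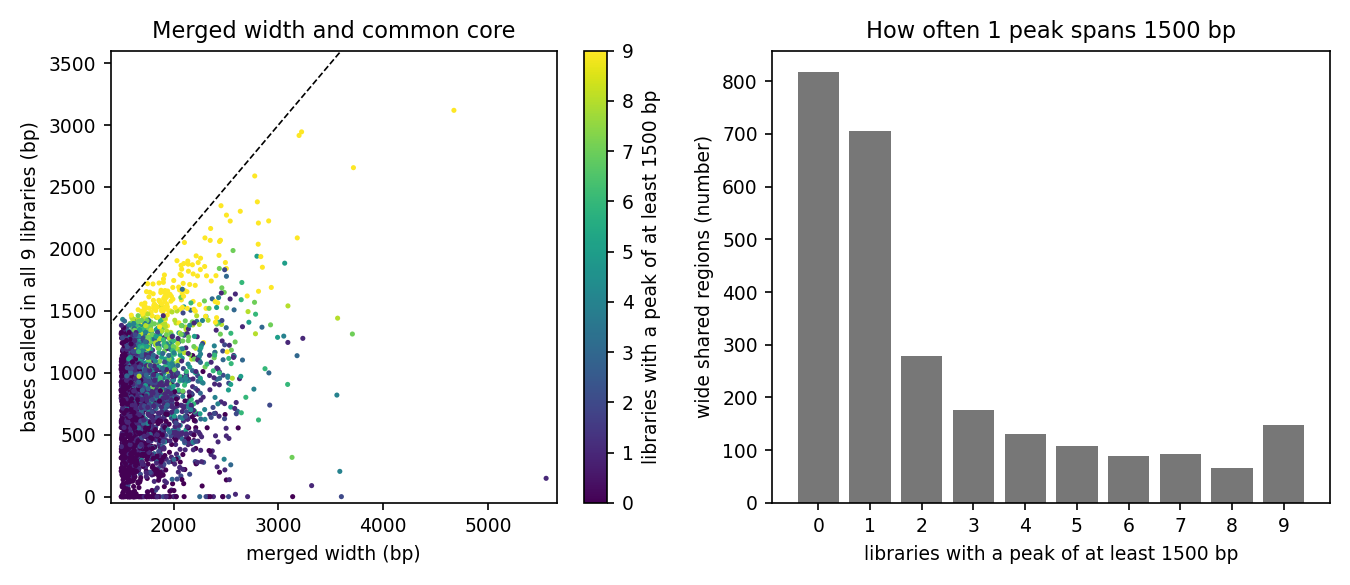
Left, bases called in all 9 libraries (bp) against merged width (bp), 1 point per wide shared region, coloured by the number of libraries with a peak of at least 1500 bp; on the dashed line the core equals the width. Right, number of regions by the number of libraries with such a peak; 817 regions have none and 147 have one in all 9 libraries.

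Regions held by a wide peak in every library were also the strong ones. The deposited score was used as a rank within a library unless another scale is named: the shared regions were ordered by the highest score of their peaks, and the score rank is the place from the top in percent, so that a low percent is a strong region. The 147 regions with a 1500 bp peak in all 9 libraries had a median width of 2033 bp and a median core of 83.0% of the width. Their median score rank was 15.6% (0.0227% to 60.7%). The 817 regions without any such peak had a median width of 1591 bp, a core of 33.1% and a score rank of 50.9% (0.117% to 99.0%). Width, core and rank come from the same peak lists, so these values are a description.

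The 3 regions named on each side of the limit were not alike in score rank, and regions near the limit were not compared as a class. Of the 3 regions just inside, chr1:203829630-203831129 was 1 peak in each library with a core of 53.0%, and its score rank was between 2.31% and 5.74%. Another, chr2:96809809-96811308, was called as 2 peaks in 8 libraries. The third, chr5:133328587-133330086, had a core of 13.7%. Just outside, at 1499 bp, lay chr1:26361457-26362955, chr3:32432830-32434328 and chr7:100033073-100034571, with score ranks between 20.3% and 66.7%.

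The widest region, chr8:126455397-126460952, was a row of separate peaks. Each library called 2 to 5 peaks there, 30 in all, and covered 1621 to 3287 bp of its 5556 bp. Every base common to the 9 libraries lay in a stretch of 148 bp, and the median score rank was 88.3%. The first called base varied by 2488 bp between libraries and the last by 1890 bp, and both edges differed by group. From the region's centre, VCaP_DMSO libraries began at -467, -290 and -1423 bp. VCaP_ENZ libraries began at -2778, -2718 and -2484 bp and VCaP16 libraries at -2236, -2444 and -2521 bp. The last bases were at 2778, 2696 and 2312 bp in VCaP_DMSO, 888, 1554 and 1337 bp in VCaP_ENZ and 1741, 2279 and 1612 bp in VCaP16. VCaP_DMSO overlapped neither drug group at either edge, which was not tested. The region was named for its merged width, which edges that differ between libraries increase, so these edges are a description.

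The second widest, chr11:65212553-65217228 (4676 bp), was open over most of its length in all groups. VCaP_DMSO libraries covered 3968, 4326 and 4447 bp of it, VCaP_ENZ libraries 3984, 3830 and 3827 bp and VCaP16 libraries 3894, 4250 and 4219 bp. The groups overlapped. Its core of 3119 bp was the longest of all wide shared regions, and its median score rank was 10.0%.

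Next came chr21:28215371-28219087 (3717 bp, core 71.5%), where every library had a peak of at least 1904 bp. The region chr1:142535680-142539386 (3707 bp, core 35.4%) lay directly beside the longest stretch of chromosome 1 without any called region. VCaP_DMSO replicate 1 called it as 1 peak of 3665 bp, and the other 8 libraries split it into 2 to 4 peaks. Its score ranks were 56.8%, 52.1% and 24.3% in VCaP_DMSO, 52.3%, 69.2% and 53.2% in VCaP_ENZ and 82.3%, 75.6% and 85.1% in VCaP16. The VCaP16 libraries were lowest, without overlap, as in 3.39% of all shared regions. The region did not pass the tests of single regions given below.

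Among the other 6 of the 10 widest were 2 from the end of chromosome 17. The region chr17:79464943-79468508 (3566 bp) had a core of 40.4% and chr17:80029757-80033358 (3602 bp) had none. The region chr7:27228422-27232008 (3587 bp) had a core of 5.69%, chr12:52453942-52457259 (3318 bp) of 2.68% and chr16:33898731-33902289 (3559 bp) of 23.0%. The last of the 10, chr14:55031678-55034911 (3234 bp), had a core of 39.5%. Of the 10 widest, chr11:65212553-65217228 and chr21:28215371-28219087 alone were mostly common to all libraries.

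At the other extreme of form, 5 regions were nearly the same interval in each library. In chr1:154973212-154974963 (1752 bp) the 9 peaks were 1732 to 1752 bp long and shared 1719 bp, 98.1% of the region. Its first base varied by 20 bp between libraries and its last by 13 bp. The regions chr11:64007993-64010096 (core 97.5%), chr12:120728592-120731044 (95.8%), chr20:32254200-32256003 (95.2%) and chr17:48943573-48945314 (95.0%) followed. All 5 were 1 peak in all 9 libraries, and their median score ranks lay between 3.24% and 17.5%. Over all wide shared regions the first called base varied by a median of 288 bp and the last by 294 bp.

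The 82 regions without a common base cannot be ordered by core. The first 5 by position, all on chromosome 1, were chr1:6660915-6663439, chr1:12588139-12589672, chr1:65431361-65432984, chr1:95285337-95286938 and chr1:156829287-156831155. Their median score ranks were between 77.9% and 92.7%. In chr1:6660915-6663439 (2525 bp) VCaP_DMSO replicates 1 and 2 each called 1 peak, of 1737 and 2062 bp, while VCaP_DMSO replicate 3 called 4 peaks, the longest of 536 bp.

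**Figure D2:**
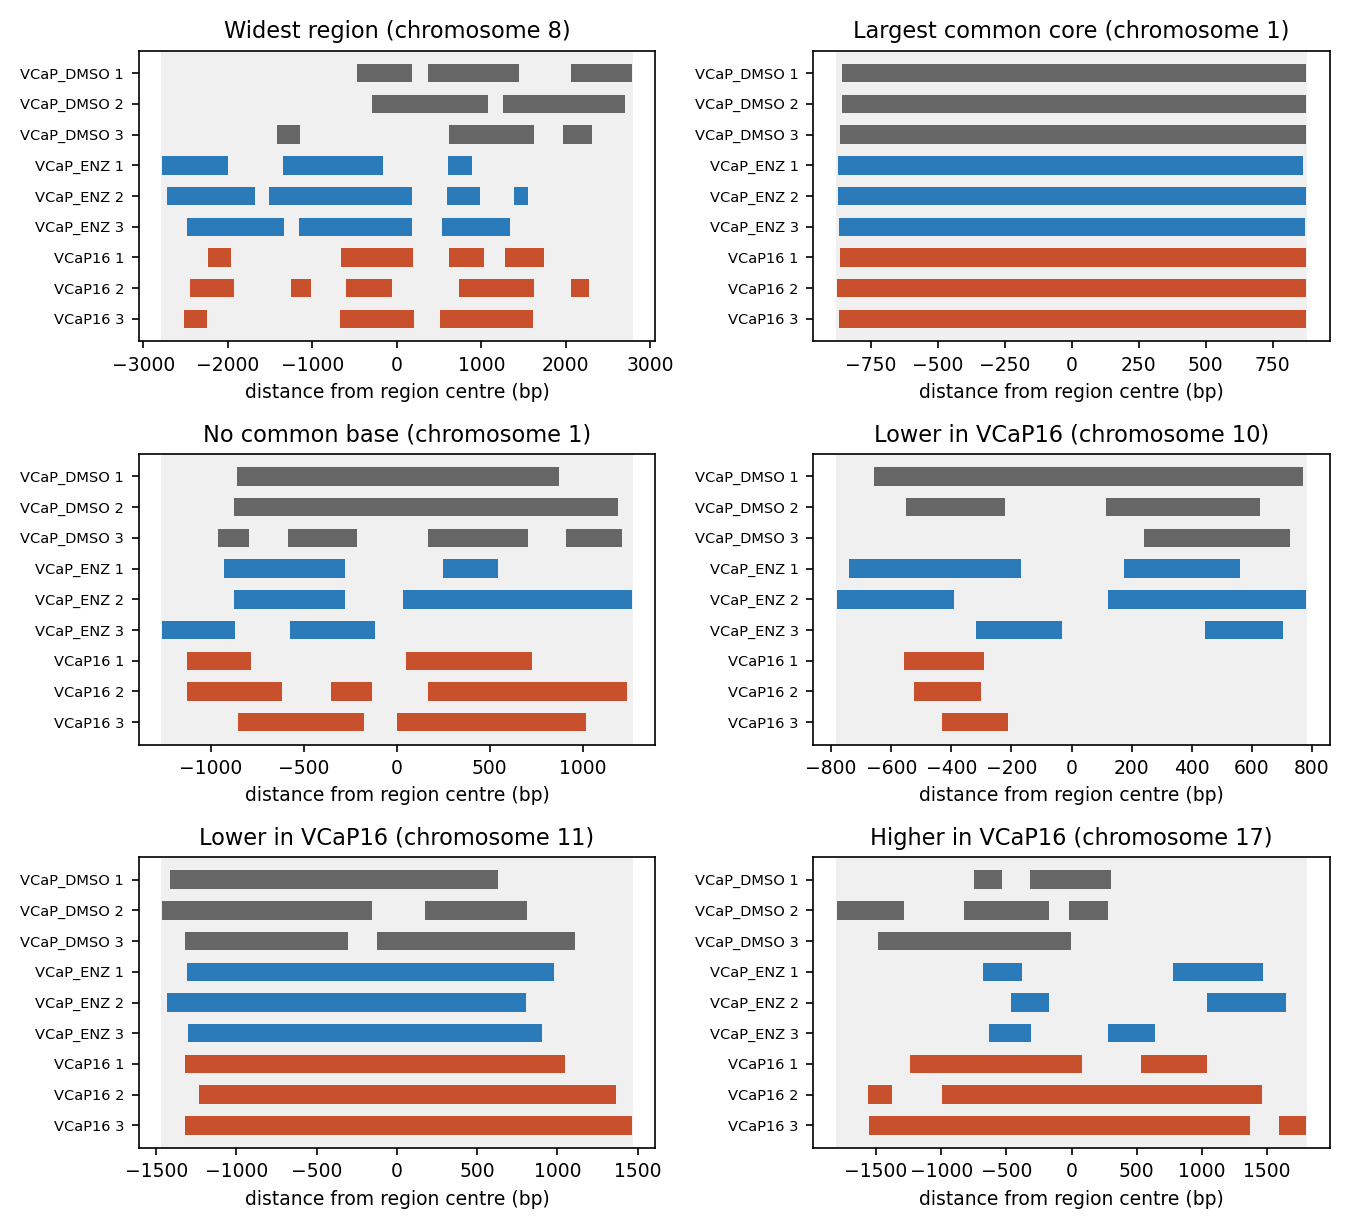
Called peaks (bars) of 6 wide shared regions by library, against the distance from the region's centre (bp); the grey field is the merged region. The widest region is a row of separate peaks, the region with the largest core is the same interval in every library, and the chromosome 10 region has VCaP16 peaks on the left side alone.

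A wide region was usually 1 peak in a given library. Of the 23481 pairs of a region and a library, 73.1% held 1 peak, 25.7% held 2 and 1.23% held 3. All 9 libraries agreed on 1 peak in 995 regions (38.1%), and in 25 regions no library called 1 peak. No library called more than 5 peaks in a region.

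Wide shared regions leaned to the strong side of the ranking, but many were weak. The median score rank of the wide shared regions, taken over their medians across libraries, was 36.8% (quartiles 16.6% and 61.2%). In the top 10% lay 383 regions (14.7%), and 918 (35.2%) lay below the 50% mark. By width, the rank was weakest in narrow regions and did not improve steadily above 1000 bp. In VCaP_DMSO the mean of the library medians was 60.6% for shared regions of 500 to 750 bp, 48.3% for 750 to 1000 bp, 35.8% for 1000 to 1250 bp and 33.5% for 1250 to 1500 bp. It was 32.2% for 1500 to 1750 bp, 34.1% for 1750 to 2000 bp, 37.5% for 2000 to 2500 bp and 31.7% for the 95 regions of 2500 bp or more.

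The strongest and weakest regions were named after their values were seen. Strongest by median rank was chr19:27731918-27733643, beside the longest stretch of chromosome 19 without a called region. Its score rank was 0.0136% or 0.0167% in each library, with a core of 81.0%. The region chr18:107764-110021 had a median score rank of 0.0227% and chr1:16839538-16841162 of 0.0318%. Weakest were chr2:238768531-238770860, chr1:230203330-230204831 and chr5:137774073-137775629, with median score ranks of 99.0%, 98.8% and 98.6% and no common base.

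Wide shared regions were spread over all 23 chromosomes used. They made up 9.63% of the shared regions on chromosome 6 and 9.54% on chromosome 4, and least on chromosome X (5.50%) and chromosome 22 (5.56%). The nearest other merged region lay at a median distance of 8334 bp, against 7880 bp for narrower shared regions. Another region lay within 1 kb of 10.4% of them, against 9.17% of narrower ones. Another wide shared region lay within 10 kb of 95 regions (3.64%). Within 2 Mb of the longest empty stretch of their chromosome were 81 (3.10%), against 2.41% of the narrower regions.

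The groups were then compared over libraries, to ask whether drug exposure or the resistant line altered the form of these regions. No measure of form passed the test. Peak lengths also set the merged width that chose the regions, so these measures are not independent of the rule. Peaks per region were 1.27, 1.17 and 1.32 in VCaP_DMSO, 1.33, 1.27 and 1.36 in VCaP_ENZ and 1.30, 1.29 and 1.24 in VCaP16. The means were 1.25 ± 0.0773, 1.32 ± 0.0462 and 1.28 ± 0.0308 (SD, n = 3 each; two-sided exact permutation test over 280 splits, p = 0.396). The ranges overlapped in every pair of groups.

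On average a wide region was covered over 77.6%, 77.2% and 70.0% of its width in VCaP_DMSO, over 67.1%, 79.3% and 65.2% in VCaP_ENZ and over 68.6%, 72.3% and 80.1% in VCaP16. In bases the group means were 1352 ± 77.8, 1272 ± 139 and 1327 ± 107 bp (SD, n = 3 each; exact permutation p = 0.654). The highest library of each drug group was the one with the longest list. The share of regions with a 1500 bp peak ran from 14.3% in VCaP_ENZ replicate 3 to 36.0% in VCaP16 replicate 3, with group means of 28.0%, 21.6% and 25.5% (exact permutation p = 0.668). Regions called as 1 peak averaged 75.8%, 69.5% and 73.9% (exact permutation p = 0.379).

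Set against the narrower shared regions of the same library, wide regions were covered over 2.24 ± 0.0707 times as many bases in VCaP_DMSO, 2.14 ± 0.0695 times in VCaP_ENZ and 2.15 ± 0.0182 times in VCaP16 (SD, n = 3 each). The VCaP16 ratios of 2.13, 2.16 and 2.16 lay below all VCaP_DMSO ratios of 2.21, 2.32 and 2.19. They differed by -0.0892 on average (exact permutation p = 0.1, and 0.367 when adjusted over the 11 measures); no smaller p is possible with 3 libraries against 3. The 2 drug groups overlapped in this ratio. The regions it compares are split at the width limit, so the ratio is not independent of the rule either.

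The smallest p over the 3 groups was that of score rank. The median rank of the wide regions was 33.9%, 31.2% and 35.0% in VCaP_DMSO, 37.1%, 33.9% and 38.5% in VCaP_ENZ and 37.4%, 38.8% and 37.7% in VCaP16. All VCaP16 libraries ranked these regions weaker than any VCaP_DMSO library, while VCaP_ENZ overlapped both. The mean in VCaP16 (38.0% ± 0.714, SD, n = 3) exceeded that in VCaP_DMSO (33.4% ± 1.94) by 4.58 points (exact permutation p = 0.1, again the lowest possible, and 0.367 when adjusted). Against the 6 VCaP libraries (34.9% ± 2.59) the difference was 3.01 points (exact permutation test over 84 splits, p = 0.0833, adjusted 0.917). It was 3.57 points (exact permutation p = 0.0357) without VCaP_ENZ replicate 3, and 1.97 points (exact permutation p = 0.161) without VCaP_DMSO replicate 2. The difference of VCaP_ENZ from VCaP_DMSO was 3.15 points (exact permutation p = 0.2) and that of VCaP16 from VCaP_ENZ 1.44 points (exact permutation p = 0.4). Over all 3 groups p was 0.0607 (exact permutation, adjusted 0.570). Scores come from the same peaks that set the merged width, so this comparison is not independent of the rule that chose the regions.

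**Figure D3:**
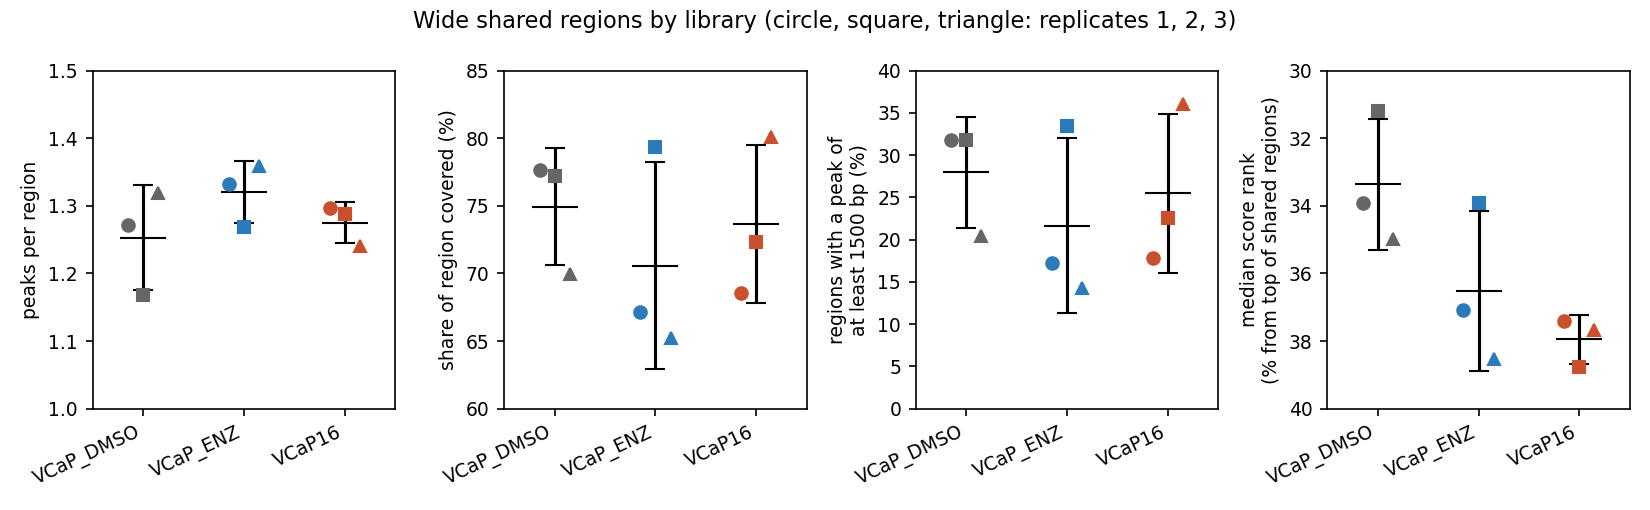
Values of each library over the 2609 wide shared regions (points), with the group mean and SD (line and bars, n = 3): peaks per region, share of the region covered (%), share of regions with a peak of at least 1500 bp (%) and median score rank (% from the top of the shared regions, axis inverted). Groups overlap except in score rank, where the VCaP16 libraries lie below all 3 VCaP_DMSO libraries.

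VCaP_DMSO had the strongest mean rank in each width class from 1000 bp upward, also below the 1500 bp limit, and in no class below 1000 bp. Shared regions of 1250 to 1500 bp had a mean of 33.5% in VCaP_DMSO, one of 35.4% in VCaP_ENZ and one of 36.9% in VCaP16, and those of 1000 to 1250 bp had 35.8%, 36.5% and 38.0%. At 1500 to 1750 bp the means were 32.2%, 34.6% and 36.7%, at 2000 to 2500 bp 37.5%, 40.2% and 42.8%, and from 2500 bp 31.7%, 32.2% and 34.9%. At 1750 to 2000 bp VCaP_ENZ was at 37.99% and VCaP16 at 37.9%, with VCaP_DMSO at 34.1%. Narrower classes had no single order: 48.3%, 47.1% and 48.1% at 750 to 1000 bp, 60.6%, 59.5% and 58.0% at 500 to 750 bp and 66.4%, 67.6% and 64.8% at 300 to 500 bp. Ranks within a library sum to the same total, so a lower place for wide regions goes with a higher place for narrower ones.

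**Figure D4:**
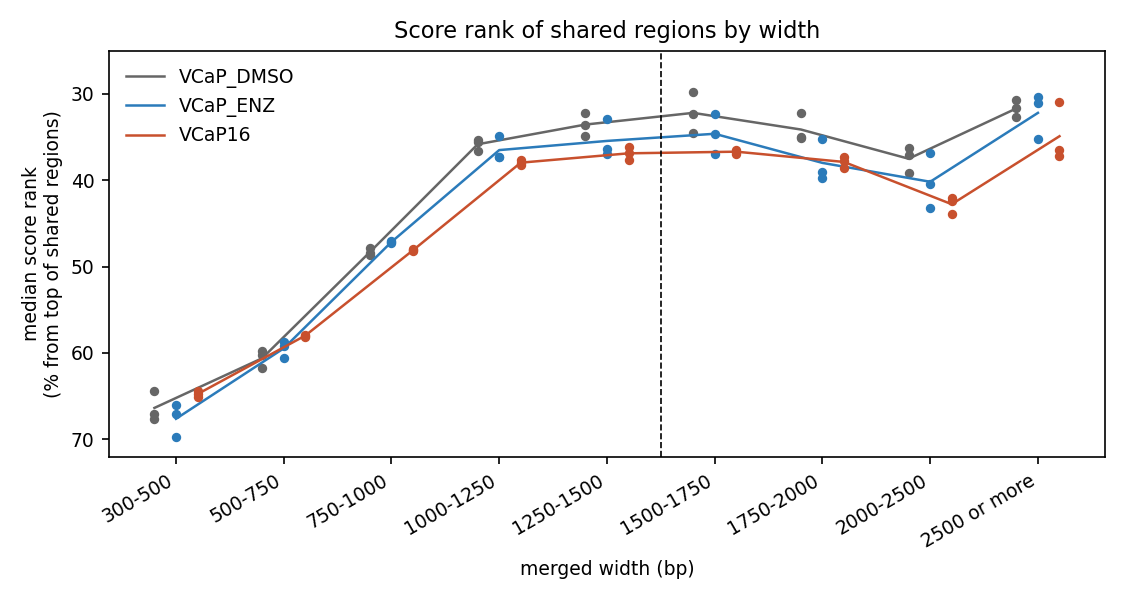
Median score rank (% from the top of the 33033 shared regions, axis inverted) by merged width (bp) in each library (points), with group means (lines); wide shared regions lie to the right of the dashed line. From 1000 bp upward the VCaP_DMSO mean is the strongest of the 3 groups in each class.

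Single regions were compared with limma on normal scores of the ranks, which place each library's ranks on a standard normal scale. Benjamini-Hochberg adjustment was over all 33033 shared regions. On this scale a step in rank counts for more near either end of the list. Few wide regions passed. For VCaP16 against VCaP_DMSO, no wide region was higher, where 0.512% of all shared regions passed, and 3 were lower, where 0.263% passed. For VCaP16 against the 6 VCaP libraries, 1 was higher (background 0.391%) and 4 were lower (background 0.336%). Both comparisons use the same VCaP16 and VCaP_DMSO libraries. As shares of the 2609 wide regions, the 3 and 4 lower regions are 0.115% and 0.153%, below the backgrounds. The split moved with the scale. On percent ranks 3 were higher (background 0.621%) and 7 lower (background 0.348%) against VCaP_DMSO, and 3 higher (background 0.448%) and 4 lower (background 0.303%) against the 6 VCaP libraries. On log2 scores minus the library median these counts were 2 (background 0.917%), 6 (background 0.487%), 2 (background 0.512%) and 7 (background 0.424%). The largest of these counts, 7, is 0.268% of the wide regions, so each lay below its background.

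The direction of the many small differences leaned one way. For VCaP16 against VCaP_DMSO, 67.3% of the wide regions had a lower normal score in VCaP16, with a median difference of -0.12, against 50.5% of the narrower shared regions. The 2 groups did not overlap, with VCaP16 lower, in 344 wide regions (13.2%; background 9.8%), and with VCaP16 higher in 104 (3.99%; background 10.1%). For VCaP_ENZ against VCaP_DMSO, 63.4% were lower in VCaP_ENZ (median -0.084), against 49.5% of the narrower regions. Without overlap there, 257 were lower (9.85%; background 7.52%) and 119 higher (4.56%; background 8.27%). For VCaP16 against VCaP_ENZ, 52.7% were lower (median -0.018), 276 of them without overlap (10.6%; background 8.99%), and 157 were higher without overlap (6.02%; background 8.59%). Against all 6 VCaP libraries, 102 were lower without overlap (3.91%; background 3.39%) and 26 higher (0.997%; background 3.7%). The first and second comparisons share the VCaP_DMSO libraries. Score and merged width come from the same peaks, so this lean is not independent of the rule that chose the regions. With 1 library left out, the share lower in VCaP16 than in VCaP_DMSO ran from 62.1% (without VCaP_DMSO replicate 2) to 69.5% (without VCaP_DMSO replicate 3). On log2 scores minus the library median the share lower in VCaP16 than in VCaP_DMSO was 73.9%. All shared regions moved lower on that scale too, with a median difference of -0.0516, against -0.181 in wide regions. With ranks taken among the wide regions alone the share lower was 50.6%, as such ranks have the same total in every library. The same lean held for 64.2% of shared regions of 1250 to 1500 bp and 58.3% of those of 1000 to 1250 bp in VCaP16 against VCaP_DMSO.

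The region chr6:36098195-36099981 (1787 bp) was lower in VCaP16. Its score ranks were 64.0%, 73.7% and 77.9% in VCaP_DMSO, 83.1%, 77.1% and 81.5% in VCaP_ENZ and 94.3%, 96.9% and 97.7% in VCaP16. VCaP16 lay below all other libraries, near the weak end of the list. The normal score differed from VCaP_DMSO by -1.23 (SE 0.194, limma adjusted p = 0.0251) and from the 6 VCaP libraries by -1.09 (SE 0.168, limma adjusted p = 0.031). The covered lengths overlapped, with 1154, 800 and 1226 bp in VCaP16 and between 606 and 1459 bp in the VCaP libraries.

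The region chr15:52028826-52030468 (1643 bp) was also lower in VCaP16. Score ranks were 32.2%, 63.5% and 47.0% in VCaP_DMSO, 60.1%, 69.0% and 72.4% in VCaP_ENZ and 89.2%, 91.7% and 85.7% in VCaP16, again without overlap. The difference in normal score was -1.29 from VCaP_DMSO (SE 0.229, limma adjusted p = 0.0355) and -1.04 from the 6 VCaP libraries (SE 0.198, limma adjusted p = 0.0467). The 3 VCaP16 libraries still covered 1042, 1042 and 1179 bp.

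At chr10:98955614-98957175 (1562 bp) the call itself was shorter in VCaP16. The VCaP16 libraries each called 1 peak, of 267, 222 and 221 bp, all of it left of the region's centre. All 6 VCaP libraries called bases right of the centre, and 116 bp there were common to the 6. VCaP_DMSO libraries covered 1430, 840 and 487 bp and VCaP_ENZ libraries 958, 1050 and 544 bp, all longer than in VCaP16. No base was called in all 9 libraries. VCaP_DMSO replicate 1 alone called across the centre, from -659 to 771 bp. Without that library the region was no wide shared region, so the rule and the values below are not independent. The 1 peak of VCaP_DMSO replicate 3, from 241 to 728 bp, shared no base with the VCaP16 peaks. Length and score therefore partly compare different stretches of the region. The score ranks were 83.0%, 91.3% and 84.8% in VCaP_DMSO, 94.8%, 94.0% and 91.9% in VCaP_ENZ and 98.1%, 99.8% and 99.95% in VCaP16. Normal scores differed by -1.63 from VCaP_DMSO (SE 0.283, limma adjusted p = 0.0355) and by -1.42 from the 6 VCaP libraries (SE 0.245, limma adjusted p = 0.0368). The VCaP16 ranks lay at the weak end of the list, where a small step in rank is a large step in normal score. The rank of covered length differed by -2.60 normal score units from the 6 VCaP libraries and did not pass (limma adjusted p = 0.228).

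The region chr11:69469014-69471939 (2926 bp) was lower in score and not shorter. VCaP_DMSO libraries had score ranks of 22.1%, 15.9% and 28.8%, VCaP_ENZ libraries 18.5%, 22.1% and 18.9%, and VCaP16 libraries 44.9%, 59.3% and 57.6%. The 6 VCaP libraries lay together, and VCaP16 stood apart from them by -0.91 normal score units (SE 0.165, limma adjusted p = 0.0409). Against VCaP_DMSO alone the region did not pass (limma adjusted p = 0.0667). VCaP16 libraries called 2372, 2603 and 2785 bp of it, more than any VCaP library (1945 to 2287 bp), a difference in length rank of 0.49 that did not pass (limma adjusted p = 0.535).

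The 1 wide region that was higher in VCaP16, chr17:80029757-80033358, was the fifth widest. Its score ranks were 99.5%, 97.8% and 83.6% in VCaP_DMSO, 94.0%, 99.2% and 99.2% in VCaP_ENZ and 62.8%, 46.5% and 59.2% in VCaP16. The normal score was higher by 1.84 than in the 6 VCaP libraries (SE 0.332, limma adjusted p = 0.0409). Against VCaP_DMSO alone (limma adjusted p = 0.0732) and VCaP_ENZ alone (limma adjusted p = 0.106) the region did not pass. Its length rank against the 6 VCaP libraries did not pass either (limma adjusted p = 0.233). VCaP16 libraries covered 1824, 2636 and 3132 bp and had 1578 bp in common, of which 133 bp were called in no VCaP library. VCaP libraries covered 689 to 1481 bp, and no base was common to all 6. The peaks of the VCaP libraries alone left a gap inside the region, so its merged width rests on VCaP16 peaks. The rule and the values above are therefore not independent.

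These calls rest on all 9 libraries. Leaving out VCaP_DMSO, VCaP_ENZ or VCaP16 libraries in turn moved the adjusted p (limma) against the 6 VCaP libraries to between 0.0465 and 0.178. The region chr17:80029757-80033358 alone kept that call, and only without VCaP_DMSO replicate 3 (limma adjusted p = 0.0465). Against VCaP_DMSO the call of chr6:36098195-36099981 was kept without VCaP_ENZ replicate 1, 2 or 3 (limma adjusted p of 0.0411, 0.0382 and 0.0387) and lost without any other library (0.0582 to 0.0940). The call of chr15:52028826-52030468 was kept without VCaP_ENZ replicate 3 (limma adjusted p = 0.0498) and lost without any other (0.0513 to 0.118). That of chr10:98955614-98957175 was kept without VCaP16 replicate 1 (limma adjusted p = 0.0416) and lost otherwise (0.0503 to 0.113); without VCaP_DMSO replicate 1 it was no wide shared region. The direction stayed the same throughout.

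**Figure D5:**
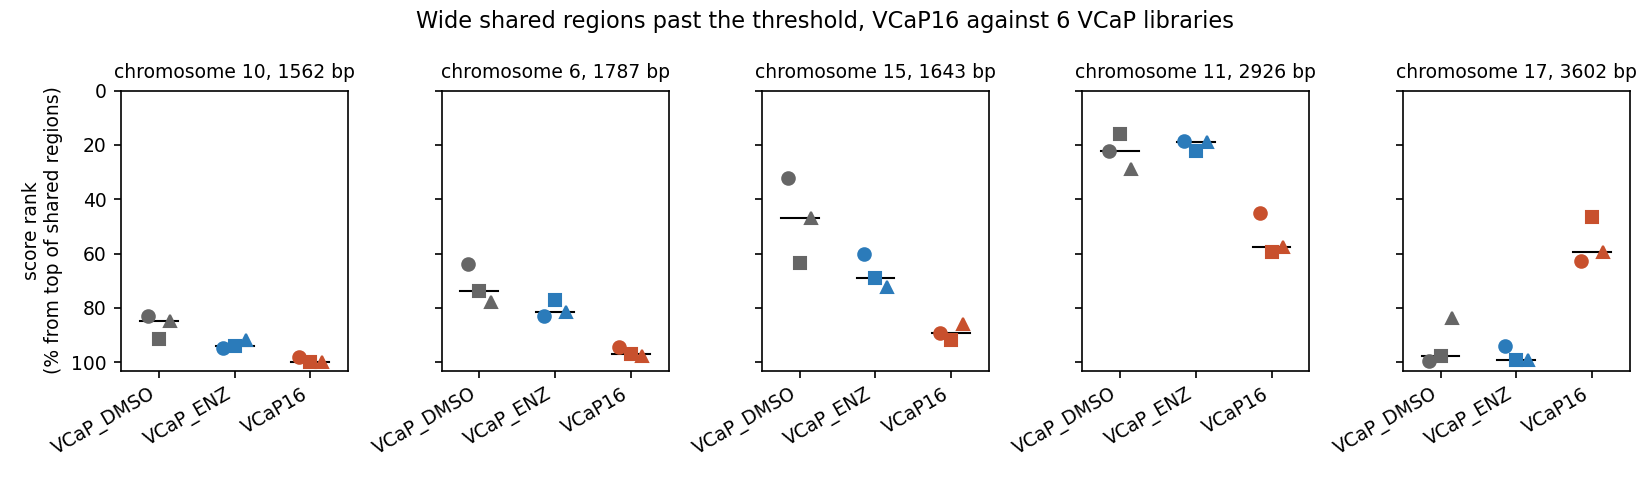
Score rank (% from the top of the 33033 shared regions, axis inverted) of the 5 wide shared regions that passed for VCaP16 against the 6 VCaP libraries, by library (points) with the group median (line). VCaP16 lies below all VCaP libraries in 4 regions and above them in the chromosome 17 region.

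For short exposure to the drug, no wide region passed in either direction, and none of the 33033 shared regions did (background 0% in each direction). At an unadjusted limma p under 0.05 there were 58 wide regions higher (2.22%, against 5.76% of all shared regions) and 150 lower (5.75%, against 5.07%). The next regions did not pass and are given as values. At chr8:23534381-23536392 (2012 bp) score ranks were 93.7%, 89.5% and 75.8% in VCaP_DMSO, 45.9%, 46.0% and 39.7% in VCaP_ENZ and 87.0%, 86.2% and 89.3% in VCaP16. The VCaP_ENZ libraries stood above both other groups (limma adjusted p = 0.121 against VCaP_DMSO and 0.0874 for VCaP16 against VCaP_ENZ). At chr17:79472948-79475370 (2423 bp) the pattern was the opposite: 47.1%, 44.7% and 45.1% in VCaP_DMSO, 80.8%, 93.3% and 77.6% in VCaP_ENZ and 41.8%, 45.8% and 36.6% in VCaP16. The limma adjusted p was 0.132 against VCaP_DMSO and 0.0874 for VCaP16 against VCaP_ENZ.

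Smaller p-values in the same comparison also belonged to chr1:230817256-230818937, higher by 1.05 normal score units in VCaP_ENZ than in VCaP_DMSO (limma adjusted p = 0.132), and chr6:18154988-18156496, at -1.13 (limma adjusted p = 0.121). In the latter, VCaP_DMSO libraries ranked 84.2%, 69.1% and 69.8% and VCaP_ENZ libraries 95.8%, 96.2% and 97.2%.

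No wide region passed between VCaP16 and VCaP_ENZ, where 0.00303% of shared regions were higher and 0% lower. At an unadjusted limma p under 0.05, 73 were higher in VCaP16 (2.80%, against 6.04% of all shared regions) and 130 lower (4.98%, against 6.28%), both below the share over all shared regions. At chr7:27228422-27232008, one of the 10 widest, score ranks were 46.5%, 65.0% and 40.2% in VCaP_ENZ, 97.2%, 85.7% and 94.1% in VCaP16 and 91.2%, 72.7% and 76.7% in VCaP_DMSO (difference VCaP16 minus VCaP_ENZ -1.50, limma adjusted p = 0.106). The called length followed, with 2327, 3122 and 2795 bp in VCaP_ENZ, 741, 972 and 758 bp in VCaP16 and 1321, 1659 and 2259 bp in VCaP_DMSO. The 3 groups did not overlap in length, and the length rank did not pass (difference -2.81, limma adjusted p = 0.164). At chr11:1323902-1325836 the score ranks were 98.4%, 99.6% and 99.7% in VCaP_ENZ, 88.0%, 81.2% and 77.8% in VCaP16 and 97.6%, 97.4% and 81.7% in VCaP_DMSO (limma adjusted p = 0.106 for VCaP16 against VCaP_ENZ). Higher in VCaP16 than in VCaP_DMSO, also without passing, was chr12:123355487-123357925 (difference 0.96, limma adjusted p = 0.0618).

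By the rank of covered length, limma called no shared region in any of the 4 comparisons (background 0% in each). At an unadjusted limma p under 0.05, 61 wide regions were longer in VCaP_ENZ than in VCaP_DMSO (2.34%, against 3.38% of all shared regions) and 140 shorter (5.37%, against 3.25%). In VCaP16 against VCaP_DMSO 69 were longer (2.64%, against 4.10%) and 91 shorter (3.49%, against 3.53%). In VCaP16 against VCaP_ENZ 131 were longer (5.02%, against 3.66%) and 63 shorter (2.41%, against 3.49%). Against the 6 VCaP libraries 86 were longer (3.30%, against 3.70%) and 87 shorter (3.33%, against 3.91%). Shares of covered lengths that did not overlap between groups lay above the background in some comparisons and below it in others, which was not tested. For VCaP_ENZ against VCaP_DMSO, 138 were longer (5.29%; background 6.08%) and 177 shorter (6.78%; background 5.08%). For VCaP16 against VCaP_DMSO, 142 were longer (5.44%; background 6.33%) and 168 shorter (6.44%; background 6.33%). For VCaP16 against VCaP_ENZ, 177 were longer (6.78%; background 5.42%) and 129 shorter (4.94%; background 6.34%). Against the 6 VCaP libraries 42 were longer (1.61%; background 1.7%) and 41 shorter (1.57%; background 1.84%).

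The region chr6:111234740-111237285 (2546 bp) was called over 872, 1363 and 1743 bp in VCaP_DMSO, 380, 495 and 391 bp in VCaP_ENZ and 1419, 1599 and 2387 bp in VCaP16. VCaP_ENZ was shortest, without overlap (limma adjusted p = 0.225 for VCaP16 against VCaP_ENZ and 0.417 against VCaP_DMSO). Near it, at chr6:111224951-111227131, the VCaP_ENZ libraries called more, 1738, 1762 and 2053 bp, than VCaP_DMSO with 1165, 1091 and 1081 bp and VCaP16 with 1333, 1496 and 1280 bp (limma adjusted p = 0.417 against VCaP_DMSO).

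Other regions with the smallest p by length showed groups that did not overlap and did not pass. At chr12:65229926-65231516 VCaP16 called 1332, 1507 and 1322 bp and VCaP libraries 756 to 1049 bp (limma adjusted p = 0.228). At chr10:43633058-43634628 VCaP_DMSO called 1371, 1276 and 1309 bp and VCaP16 635, 747 and 751 bp (limma adjusted p = 0.203). At chr16:1118039-1120025 VCaP_ENZ called 1779, 1632 and 1725 bp and VCaP16 599, 906 and 713 bp (limma adjusted p = 0.301). At chr1:1677196-1678774 VCaP_DMSO called 1579, 1518 and 1521 bp and VCaP_ENZ 924, 902 and 966 bp (limma adjusted p = 0.417). At chr4:49100222-49102453 VCaP_DMSO called 1750, 2162 and 1799 bp and VCaP16 1018, 672 and 1245 bp (limma adjusted p = 0.276). At chr14:30290199-30291871, a weak region without a common base, VCaP_DMSO called 357, 381 and 303 bp and VCaP_ENZ 663, 897 and 1128 bp (limma adjusted p = 0.417).

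Whole changes of form between groups were rare. A region was 1 peak in all 3 libraries of one group and 2 or more in all 3 of another in 20 wide regions with 1 peak in VCaP_DMSO and more in VCaP_ENZ (background 0.0696%) and in 10 for the reverse (background 0.0363%). For VCaP_DMSO and VCaP16 the counts were 11 (background 0.0515%) and 12 (background 0.0605%). For VCaP_ENZ and VCaP16 they were 9 (background 0.0394%) and 15 (background 0.0636%). Narrower regions can seldom hold 2 peaks, so these shares are not compared.

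A 1500 bp peak in all 3 VCaP_DMSO libraries and in no VCaP16 library occurred in 25 wide regions (background 0.0757%), and the reverse in 8 (background 0.0242%). For VCaP_DMSO and VCaP_ENZ the counts were 23 (background 0.0696%) and 4 (background 0.0121%), and for VCaP_ENZ and VCaP16 they were 6 (background 0.0182%) and 8 (background 0.0242%). Each such region is wide by construction, so these backgrounds hold the same regions. No test was made of these counts.

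Examples of each form were chosen after their values were seen. At chr6:90120909-90123308 (2400 bp) the VCaP_DMSO libraries called 1 peak each and the other 6 libraries 2 each, and the covered bases overlapped (1122 to 2039 bp and 1490 to 2052 bp). At chr8:95906764-95909176 (2413 bp) VCaP_DMSO called 2 peaks in each library and the other 6 libraries 1. At chr6:161412217-161414068 (1852 bp) the VCaP16 libraries called single peaks of 1674, 1758 and 1852 bp, and VCaP_DMSO called 2 peaks each, the longer of 1023, 823 and 666 bp. At chr16:33898731-33902289 VCaP_DMSO had peaks of 1895, 2065 and 1793 bp, and the longest in VCaP16 were 600, 1183 and 1277 bp.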

How the data were processed

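The authors deposited 1 list of scored intervals for each of the 9 libraries, so calling was done per library, without pooling. Tools named in the submitters' processing notes are MACS2 2.2.7.1, HOMER 3.12 and BWA 0.7.15-r1140, with hg19 as the build; settings, read filters and any Tn5 shift are not given in the sources used here. No deposited score was below 2, and it was read as a −log10 value (of p or q, which is not stated). Per the labels' protocols, cells were crosslinked before tagmentation. That text also describes a single-cell preparation; each list was taken to be bulk.

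Scores move with depth, which is unknown, so the tests used ranks within a library among the 33033 regions called in all 9; log2 scores minus the library median were 1 alternative. The rank used the highest score in a region, and the length rank used the bases called there. Each measure gave 1 value per library, a mean, share or ratio over regions or, for ranks, their median, and was compared by exact permutation, two-sided (3 groups: 280 splits, smallest p 0.00357; 3 against 6 libraries: 84 splits, 0.0119; 3 against 3: 20 splits, 0.1), adjusted over 11 measures by Benjamini-Hochberg. Regions were tested with limma 3.58.1 in R 4.3.3 on normal scores, all 9 libraries in 1 fit, at an adjusted p of 0.05. Python 3.11.15 with pandas 2.3.3 and scipy 1.17.1 did the rest. The merging of peaks, the exact permutation of 3 against 6 libraries and the limma fit were run on simulated data. The other steps were not.

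Named are the 10 widest regions, 3 on each side of the limit, the 5 largest and 5 smallest cores, and per limma comparison up to 5 regions past the threshold in each direction whose groups do not overlap, or else the 2 with the smallest p. Members, lists and tests were chosen with earlier results of these data known. Other limits of width, score, list length and coverage, other scales and fits, and leaving out libraries were tried. Planned descriptions of genes and promoters were not made, since no hg19 annotation was used here.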

Additional observations from a re-analysis of the deposited data

How the results depend on the processing

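The lists hold no read counts, so depth limits every value here to an unknown degree. Of 714 values recomputed under other settings, 538 changed neither sign nor side of the threshold (for counts, moved by at most 1.5 times). Another 102 passed no longer, 2 passed newly, 42 counts moved by over 1.5 times and 30 values changed sign. As reported, no exact permutation p over all libraries was under 0.05, so those values had no pass to lose. All 102 were limma calls of named regions. Such a call passed again in 3 of 16 alternatives at fewest (chr10:98955614-98957175, against the 6 VCaP libraries). At most it passed in 10 of 20 (chr6:36098195-36099981, against VCaP_DMSO). The causes of these changes were not tested, other than fewer libraries or regions entering some fits. There were 10749 wide shared regions with a limit of 1000 bp, 502 with 2000 bp, 1574 when each library had to cover at least 50% of the region, and 2187 to 2563 with 1 library left out.

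Score-rank calls (limma) of VCaP16 against VCaP_DMSO, 3 as reported, numbered 39 at 1000 bp, 0 at 2000 bp, 1 at 50% coverage, 10 on percent ranks and 8 on log2 scores minus the library median. They numbered 0 with only the 2 groups in the fit, with ranks among wide regions alone, and without both longest lists (VCaP_ENZ replicate 2 and VCaP16 replicate 3, a choice made after seeing the data). Leaving out 1 library, with the spread pooled over groups, gave 0 to 2. Against the 6 VCaP libraries, 5 as reported, the count was 42 at 1000 bp, 2 at 2000 bp, 3 with a score of at least 5, 3 with lists of equal length, 2 at 50% coverage, 9 on log2 scores and 2 with the length-weighted mean score. It was 0 with ranks among wide regions alone and without both longest lists, and 0 to 1 without 1 library. Length-rank calls, 0 as reported, were 1 for VCaP_ENZ against VCaP_DMSO without both longest lists and 4 for VCaP16 against VCaP_ENZ with ranks among wide regions alone; without 1 library each was 0 to 1. The named calls kept their direction under all alternatives that could be run, but not where a region was no longer wide or shared.

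Replicate numbers did not pair the libraries throughout. Same-numbered libraries had correlations of deviations from -0.00557 to 0.0455 for score and -0.0344 to 0.0564 for length, and not every library correlated best with its own number. Between VCaP_DMSO and VCaP_ENZ the score correlations of the same number, 0.0106, 0.0455 and 0.0234, were above those of different numbers (-0.0339 to 0.00977). That did not hold for length or for pairs with VCaP16. With the replicate number as a block, 0 wide regions passed for VCaP16 against VCaP_DMSO and 0 against the 6 VCaP libraries, and the median score rank against the 6 had an exact permutation p of 0.148.

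The median score rank of VCaP16 exceeded that of the 6 VCaP libraries by 3.95 points at 2000 bp (exact permutation p = 0.0357), and by 1.97 to 3.57 points without 1 library. Against VCaP_ENZ it was -0.118 points without both longest lists and -0.0323 to 2.25 without 1 library. The ratio of covered bases to narrower regions, VCaP16 minus VCaP_ENZ, was -0.00881 at 1000 bp, -0.00661 with lists of equal length and -0.0227 to 0.0520 without 1 library. With lists of equal length, VCaP16 minus VCaP_DMSO was -0.0175 peaks per region and 1.41 points of regions called as 1 peak. Without both longest lists, VCaP16 minus the 6 VCaP libraries was 0.00532 peaks per region, -19.5 bp, -1.02 points of the region covered and -0.40 points called as 1 peak. Without 1 library, these 4 differences ran from -0.0425 to 0.00657, -44.3 to 62.0 bp, -2.40 to 3.48 and -0.539 to 4.02. Against VCaP_DMSO they ran from -0.0167 to 0.0573, -86.3 to 21.1 bp, -4.68 to 1.26 and -5.04 to 1.66. Against VCaP_ENZ, covered bases ran from -2.38 to 140.1 bp and the covered share from -0.122 to 7.75 points. Ranks among wide regions alone were not run for the median score rank, which such ranks fix.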

Other observations

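The mitochondrial genome and chromosome Y were not used in the comparisons. The mitochondrial genome held 2 merged regions of at least 1500 bp that were called in all 9 libraries, the wider of 6858 bp, which is wider than any region on chromosomes 1 to 22 and X. Chromosome Y held 12 such regions, the widest of 2581 bp.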
